A study of Saccharomyces cerevisiae with 2 samples.

Results

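This account covers the genes for the G1 cyclins (CLN1, CLN2 and CLN3), the B-type cyclins (CLB1 to CLB6) and the cyclin-dependent kinase inhibitor Sic1 in a bioethanol strain of the budding yeast Saccharomyces cerevisiae. The genes were chosen by symbol in the deposited gene tables. All 10 were found, each on 1 row, among 5659 genes listed in the series. Poly(A) RNA of ZGR3, a mutant in the background of ZTW1, and of ZTW1, labelled as the wild type, was sequenced in 1 library each. The labels name no allele, selection or agent for ZGR3, and both are labelled as bioethanol strains. Each culture, 25 mL of YPD holding glucose at 20 g/L, was started at an optical density of 0.05 and sampled as it entered the early stationary phase. Reads assigned to genes totalled 4.61 M in ZGR3 and 4.66 M in ZTW1, where M stands for mega.

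Cyclins are the regulatory subunits that activate the kinase Cdc28 in successive phases of the cell cycle. In G1, Cln3 with Cdc28 starts a programme in which the transcription factors SBF and MBF switch on CLN1, CLN2, CLB5, CLB6 and genes of DNA synthesis. Sic1 binds and inhibits Cdc28 with B-type cyclins until G1 cyclin kinase marks it for destruction by the ubiquitin ligase SCF. Clb5 and Clb6 then drive DNA replication, and Clb3, Clb4, Clb1 and Clb2 act in spindle formation and mitosis. At the end of mitosis the factor Swi5 switches on SIC1. Yeast entering stationary phase typically stops dividing as unbudded cells in G1.

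All 3 G1 cyclin genes and CLB3 had higher levels in the ZGR3 library than in the ZTW1 library, whereas SIC1 was lower in ZGR3. CLB3 and CLN2 had the highest ratios, 1.58-fold and 1.55-fold. CLB1, CLB2, CLB4 and CLB6 had lower values in ZGR3 with counting intervals that include equality, and CLB5 was almost equal in the libraries. There is no replicate of either strain, so no difference has a test. Unless named otherwise, the intervals given below are exact 95% intervals for counting error. They compare the libraries and not the strains. Reads without molecular identifiers are not independent molecules, and the spread between cultures was not measured. In bulk RNA, fewer cells in a phase of the cycle and less transcript per cell cannot be told apart.

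**Figure D1:**
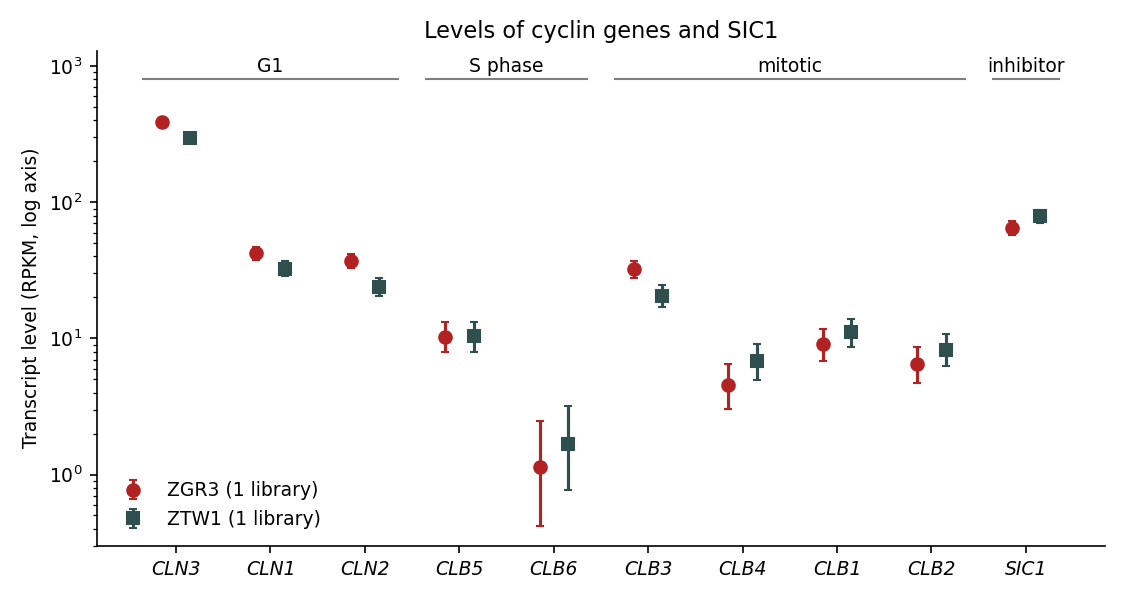
Transcript level in RPKM on a log axis for the 9 cyclin genes and SIC1, in cell cycle order, with ZGR3 as circles and ZTW1 as squares. Bars are exact 95% Poisson intervals of the reads of 1 library. CLN3 stands far above the rest in both libraries, at 392 RPKM in ZGR3 and 298 RPKM in ZTW1, and CLB6 lies lowest, at 1.14 and 1.69 RPKM.

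CLN3, the most upstream G1 cyclin gene, had 3149 reads in ZGR3 and 2417 reads in ZTW1. These correspond to 392 RPKM, or reads per kilobase of coding length per M assigned reads, in ZGR3 and 298 RPKM in ZTW1. The library of ZGR3 was thus 1.32-fold higher for CLN3 (counting interval 1.25 to 1.39), the narrowest interval of the 10 genes. The median gene of the 5532 with a mean of at least 1 RPKM had 31.8 RPKM in ZGR3 and 32.6 RPKM in ZTW1. CLN3 ranked 385th from the top of these genes in ZGR3 and 501st in ZTW1.

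CLN1 and CLN2, paralogs whose products drive the passage out of G1, lay near the middle of the range of all genes. CLN1 had 319 reads and 42.2 RPKM in ZGR3, against 249 reads and 32.6 RPKM in ZTW1. Its level was 1.30-fold higher in ZGR3 (1.09 to 1.54). CLN2 had 280 reads and 37.1 RPKM in ZGR3, against 183 reads and 24.0 RPKM in ZTW1. It was 1.55-fold higher in ZGR3 (1.28 to 1.87), so the lower bound for CLN2 lay above equality by more than that for CLN1.

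The balance within this pair had overlapping intervals in the 2 libraries. CLN1 took 53.3% of the reads of the pair in ZGR3 (95% Clopper-Pearson interval 49.2 to 57.3) and 57.6% in ZTW1 (52.8 to 62.3). Per length, CLN1 was 1.14 times CLN2 in ZGR3 (0.966 to 1.34) and 1.36 times CLN2 in ZTW1 (1.12 to 1.65). Together the pair was 1.40-fold higher in ZGR3 (1.24 to 1.59), on 599 reads in ZGR3 and 432 in ZTW1.

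The S phase cyclin genes were low in both libraries. CLB5, which encodes the main B-type cyclin of DNA replication, had 62 reads and 10.28 RPKM in ZGR3, against 63 reads and 10.33 RPKM in ZTW1. Its ratio of 0.995 has an interval of 0.689 to 1.44 that includes equality, so neither library stood above the other beyond counting error. CLB6, whose product acts with Clb5 early in S phase, had 6 reads and 1.14 RPKM in ZGR3, against 9 reads and 1.69 RPKM in ZTW1. The ratio of 0.674 for CLB6 has an interval of 0.197 to 2.12, so no difference between the libraries was detectable at this depth. CLB5 exceeded CLB6 per length 9.03 times in ZGR3 (3.92 to 25.5) and 6.12 times in ZTW1 (3.03 to 13.99).

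CLB3 was the B-type cyclin gene with the highest level in both libraries. Its product, with Clb4, acts from S phase into mitosis. CLB3 had 192 reads and 32.4 RPKM in ZGR3, against 123 reads and 20.6 RPKM in ZTW1, and was 1.58-fold higher in ZGR3 (1.25 to 1.996). The paralog CLB4 had 29 reads and 4.55 RPKM in ZGR3, against 44 reads and 6.83 RPKM in ZTW1. By reads, CLB4 was at 0.666 of its ZTW1 level in ZGR3 (0.402 to 1.09), an interval that includes equality.

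CLB3 took 86.9% of the reads of the pair in ZGR3 (Clopper-Pearson interval 81.7 to 91.0) and 73.7% in ZTW1 (66.3 to 80.2), and among the 4 paralog pairs this is the 1 whose intervals do not overlap. Per length, CLB3 was 7.13 times CLB4 in ZGR3 (4.81 to 10.9) and 3.01 times CLB4 in ZTW1 (2.12 to 4.35).

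CLB1 and CLB2 encode the main mitotic cyclins. CLB1 had 59 reads and 9.04 RPKM in ZGR3, against 73 reads and 11.1 RPKM in ZTW1, a ratio of 0.817 (0.570 to 1.17). CLB2 had 44 reads and 6.47 RPKM in ZGR3, against 57 reads and 8.29 RPKM in ZTW1, a ratio of 0.780 (0.514 to 1.18). Both genes had fewer reads in ZGR3, and each interval includes equality. Summed, the pair had 103 reads in ZGR3 and 130 in ZTW1, with a ratio of 0.801 (0.612 to 1.05). The balance of the pair was close in the libraries, with CLB1 at 57.3% of its reads in ZGR3 (47.2 to 67.0) and 56.2% in ZTW1 (47.2 to 64.8).

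SIC1, the inhibitor gene, was second to CLN3 in level in both libraries. It had 256 reads and 65.0 RPKM in ZGR3, against 314 reads and 78.8 RPKM in ZTW1. Its level was 1.21-fold lower in ZGR3 (1.03 to 1.44), and the bound nearest to equality lies close to it. SIC1 was thus the only one of the 10 genes with an interval wholly below equality.

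**Figure D2:**
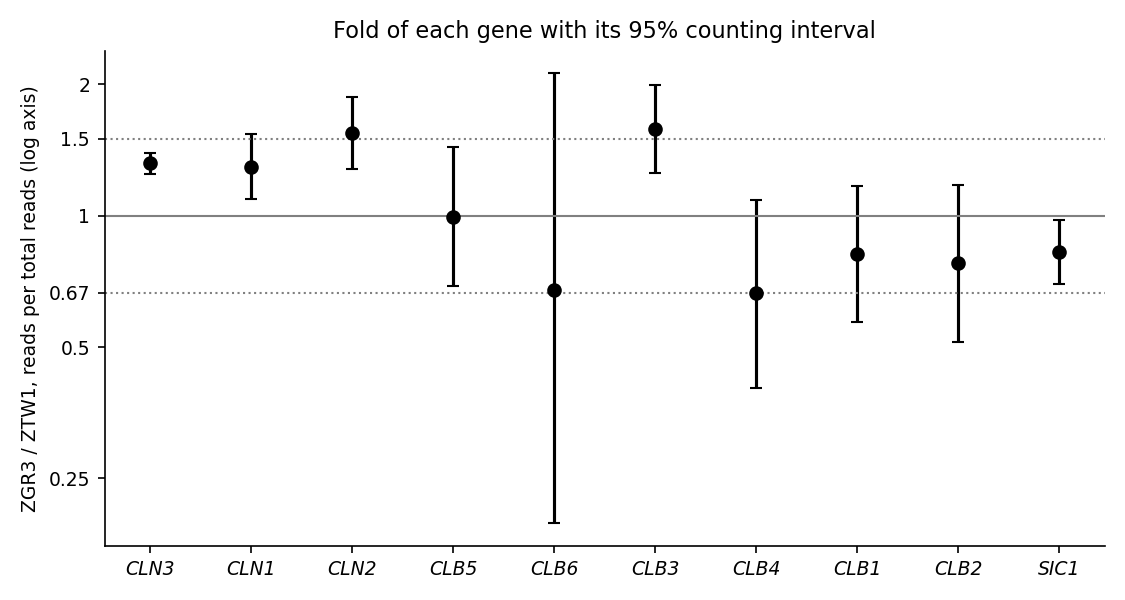
Reads per total reads in ZGR3 over ZTW1 on a log axis, for each gene in cell cycle order, with exact 95% counting intervals from 1 library per strain. The solid line marks equality and dotted lines mark 1.5-fold in either direction. CLN3, CLN1, CLN2 and CLB3 lie wholly above equality and SIC1 wholly below, while the widest interval is that of CLB6, from 0.197 to 2.12.

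Reads of the G1 cyclin genes can be set against reads of SIC1 within a library, which does not depend on how the libraries are scaled to each other. There were 2.34 reads of CLN1 and CLN2 for each read of SIC1 in ZGR3 and 1.38 in ZTW1. For CLN3 there were 12.3 reads per SIC1 read in ZGR3 and 7.70 in ZTW1. These ratios were chosen after the values were seen and restate the higher G1 cyclin genes and the lower SIC1 in ZGR3.

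Ordered by RPKM, both libraries began with CLN3, SIC1, CLN1, CLN2 and CLB3 and ended with CLB2, CLB4 and CLB6. Only CLB1 and CLB5 changed places, and they did not differ beyond counting error in either library. In ZGR3, CLB5 exceeded CLB1 1.14 times (0.784 to 1.65), and in ZTW1 CLB1 exceeded CLB5 1.07 times (0.754 to 1.52). CLN2 and CLB3 were likewise not separated, at 1.14 times in ZGR3 (0.948 to 1.38) and 1.17 times in ZTW1 (0.923 to 1.48). CLN1 and CLN2 were not separated in ZGR3 but were in ZTW1. The step from CLB3 to the next gene was clear in both, 3.15 times over CLB5 in ZGR3 (2.36 to 4.27) and 1.86 times over CLB1 in ZTW1 (1.38 to 2.52). The 4 genes below that step and above CLB6 formed a run in which no neighbour was separated from the next.

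**Figure D3:**
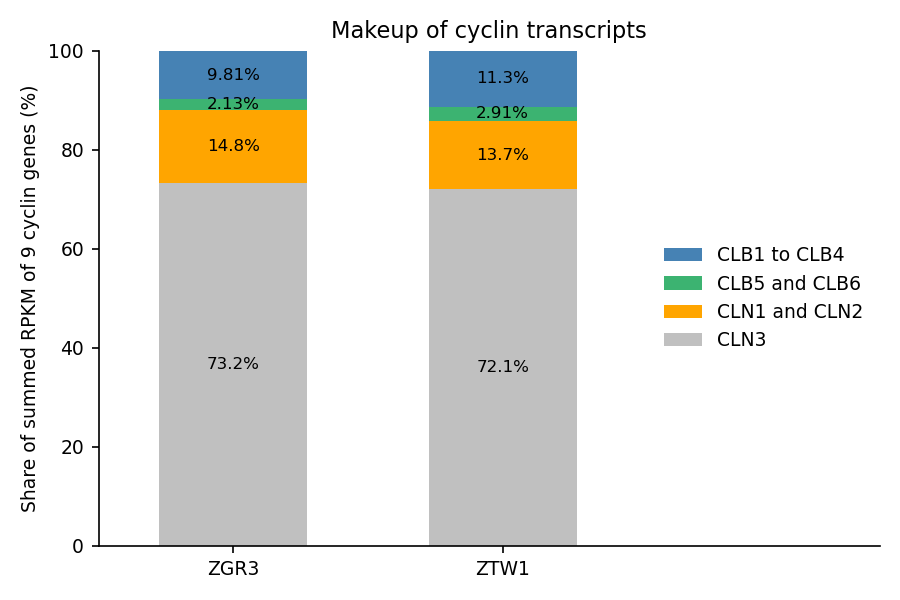
Share of the summed RPKM of the 9 cyclin genes held by CLN3, by CLN1 and CLN2, by CLB5 and CLB6, and by CLB1 to CLB4, with ZGR3 on the left and ZTW1 on the right, 1 library each. CLN3 holds 73.2% in ZGR3 and 72.1% in ZTW1, and the 4 mitotic genes hold 9.81% in ZGR3 and 11.3% in ZTW1.

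The makeup of the cyclin transcripts was dominated by G1 cyclins in both libraries. The 3 CLN genes held 88.1% of the summed RPKM of the 9 cyclin genes in ZGR3 and 85.8% in ZTW1. As a share of cyclin reads they held 90.5% in ZGR3 (Clopper-Pearson interval 89.6 to 91.4) and 88.5% in ZTW1 (87.4 to 89.6). The S phase genes CLB5 and CLB6 held 2.13% of the summed RPKM in ZGR3 and 2.91% in ZTW1. In total the 9 cyclin genes had 4140 reads in ZGR3 and 3218 in ZTW1, 1.30-fold more in ZGR3 (1.24 to 1.36), of which CLN3 supplied 76.1% and 75.1%. The 6 CLB genes together had 392 reads in ZGR3 and 369 in ZTW1, a ratio of 1.07 (0.929 to 1.24). CLB3 alone put this sum above equality. Without CLB3, left out after its value was seen, the other 5 CLB genes had 200 reads in ZGR3 and 246 in ZTW1, a ratio of 0.822 (0.679 to 0.995). CLB1, CLB2 and CLB4, the mitotic genes without CLB3, had 132 reads in ZGR3 and 174 in ZTW1, a ratio of 0.767 (0.607 to 0.967). The intervals of both sums without CLB3 take no account of that choice. For CLB1, CLB2 and CLB4 each taken alone, the interval includes equality.

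On the log2((RPKM ZGR3 + 1)/(RPKM ZTW1 + 1)) scale, which understates differences of low genes, the 10 genes had a median of −0.14, against −0.02 over the 5532 genes with a mean of at least 1 RPKM. The 5th and 95th percentiles of these genes were −0.69 and 0.53. Over the 7 of the 10 genes with a mean of at least 10 RPKM the median was 0.36, since CLB2, CLB4 and CLB6 fall out and all 3 are below 0. CLB3 (0.63) and CLN2 (0.61) lay above that range and ranked 165th and 182nd from the highest of all genes. CLN3 (0.40) ranked 474th and CLN1 (0.36) 578th. CLB4 (−0.50), CLB6 (−0.33), CLB2 (−0.31), SIC1 (−0.27), CLB1 (−0.26) and CLB5 (−0.01) lay within the range.

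At a fold of at least 1.5 on this scale, 2 of the 10 genes were higher in ZGR3, against 3.63% of all genes, and 0 of 10 were lower, against 7.39%. With a pseudocount of 5 RPKM in place of 1, 0 of 10 were at least 1.5-fold higher. None of the 10 was 2-fold apart, as for most genes, since 2.46% of all genes were 2-fold apart in either direction. Counting intervals lay wholly above equality for 4 of the 10, against 17.9% of all genes, and wholly below for 1 of the 10, against 19.8%. An interval that excludes equality is therefore frequent among the genes of these libraries. The same shares of all genes, 3.63% higher and 7.39% lower at 1.5-fold, are the background for the lists below. Both the 10 genes and these lists were chosen with earlier results of these data known.

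**Figure D4:**
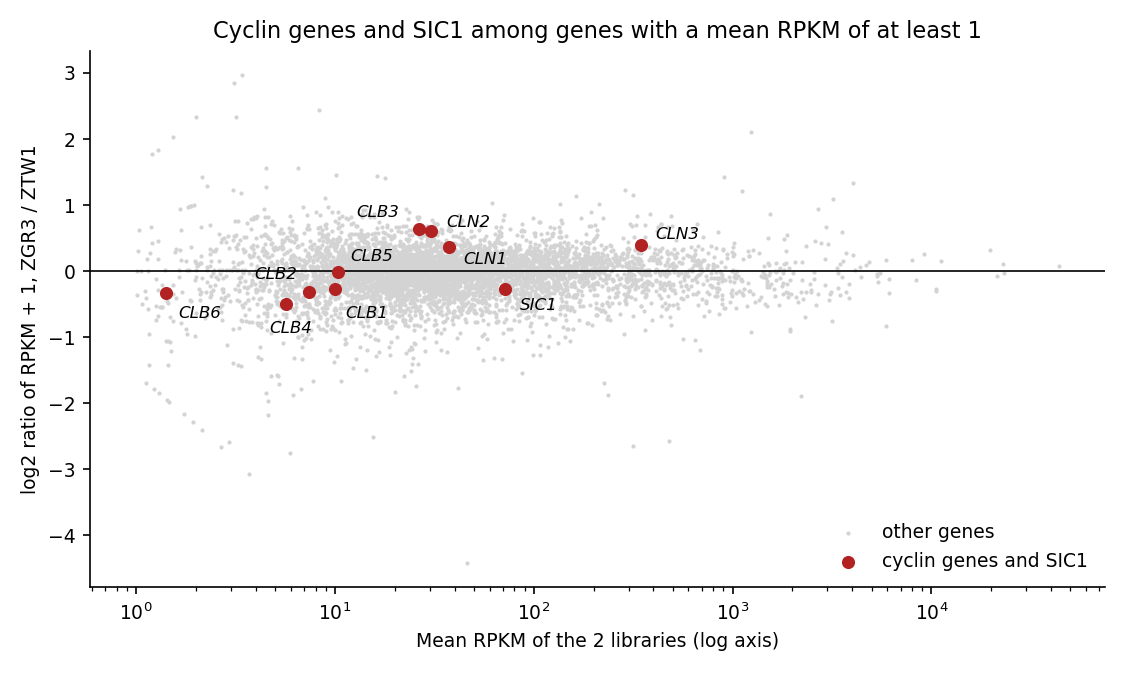
Log2 ratio of RPKM + 1, ZGR3 over ZTW1, against the mean RPKM of both libraries on a log axis, with the 10 genes as large labelled points and the other genes with a mean of at least 1 RPKM in grey. CLB3 and CLN2 lie at the upper edge of the grey band at 0.63 and 0.61, and the low CLB genes lie where the band is wide.

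In the RefSeq annotation of assembly R64, used for names and gene order only, CLB5 and CLB2 are neighbours on chromosome XVI and CLB6 and CLB1 are neighbours on chromosome VII. CLN2 is also on chromosome XVI, CLN3 on I, CLN1 on XIII, CLB3 on IV, and CLB4 and SIC1 on XII. None of the 10 genes overlaps another annotated gene there. The genes at each of these shared loci had log2 ratios of −0.01 for CLB5 beside −0.31 for CLB2, and −0.33 for CLB6 beside −0.26 for CLB1. CLB3 and CLB4, and CLN1 and CLN2, are paralogs on different chromosomes. Reads were counted only where they were uniquely assigned, and loss of reads in stretches shared by paralogs was not tested.

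CDC28, the gene of the kinase that all 9 cyclins activate, had 162 reads and 39.2 RPKM in ZGR3, against 94 reads and 22.5 RPKM in ZTW1. It was 1.74-fold higher in ZGR3 (1.34 to 2.27). Of the 9 genes for Cdc28 and its regulators, 2 reached a fold of 1.5 as higher in ZGR3 and 0 as lower, with a median log2 ratio of 0.25. The number higher was 1 with a pseudocount of 5 RPKM or a correction for coding length and 3 after subtraction of chromosome medians, and with a pseudocount of 0.1 RPKM 1 gene was lower. The other gene past this fold was SWE1, for the kinase that inhibits Cdc28 with mitotic cyclins, at 16.6 RPKM in ZGR3 and 10.5 RPKM in ZTW1 (log2 ratio 0.62).

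Of 11 genes for SBF and MBF, which switch on CLN1 and CLN2, and their regulators, 9 lay above 0, against 48.0% of all genes. The median was 0.18. Counting intervals lay wholly above equality for 4 of the 11, against 17.9% of all genes, and wholly below for 0, against 19.8%. Of the 11, 2 were at least 1.5-fold higher and 0 lower. These were MSA2, at 109 RPKM in ZGR3 and 66.0 in ZTW1 (0.72), and MSA1, at 64.6 RPKM in ZGR3 and 41.4 in ZTW1 (0.63), paralogs that bind SBF and MBF. With a pseudocount of 5 RPKM, 1 of 11 was at least 1.5-fold higher. SWI4, for the DNA-binding subunit of SBF, had 21.3 RPKM in ZGR3 and 18.8 RPKM in ZTW1, with an interval that includes equality (0.961 to 1.33). SWI4 was chosen after its value was seen.

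Target genes of SBF and MBF other than the cyclins had the highest median of the 8 lists, 0.52. All 16 of 17 such genes with a mean of at least 1 RPKM lay above 0, against 48.0% of all genes, and 5 of 16 were at least 1.5-fold higher and 0 lower. Counting intervals lay wholly above equality for 10 of the 16, against 17.9% of all genes, and wholly below for 0, against 19.8%. The intervals of the rest include equality. Because the list was chosen with earlier results of these data known, these counts describe it and give no independent support. The 17th, HO, had 1 read in ZGR3 and 0 in ZTW1. POL1, for the catalytic subunit of DNA polymerase alpha, had 22.9 RPKM in ZGR3 and 13.7 RPKM in ZTW1 (0.71). YOX1, for a repressor of genes of the M to G1 interval, had 48.3 RPKM in ZGR3 and 29.5 in ZTW1 (0.70). RFA1 (0.67), CDC9 (0.62) and POL2 (0.59), which serve DNA replication, complete the 5 and were named after their values were seen. With a pseudocount of 5 RPKM, 2 of 16 were at least 1.5-fold higher. The number was 4 after subtraction of chromosome medians. It was 6 with a pseudocount of 0.1 RPKM, median centring or trimmed mean of M values scaling. CLB5 and CLB6, listed among the cyclins although MBF also acts on them, had −0.01 and −0.33 beside 0.36 for CLN1 and 0.61 for CLN2.

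**Figure D5:**
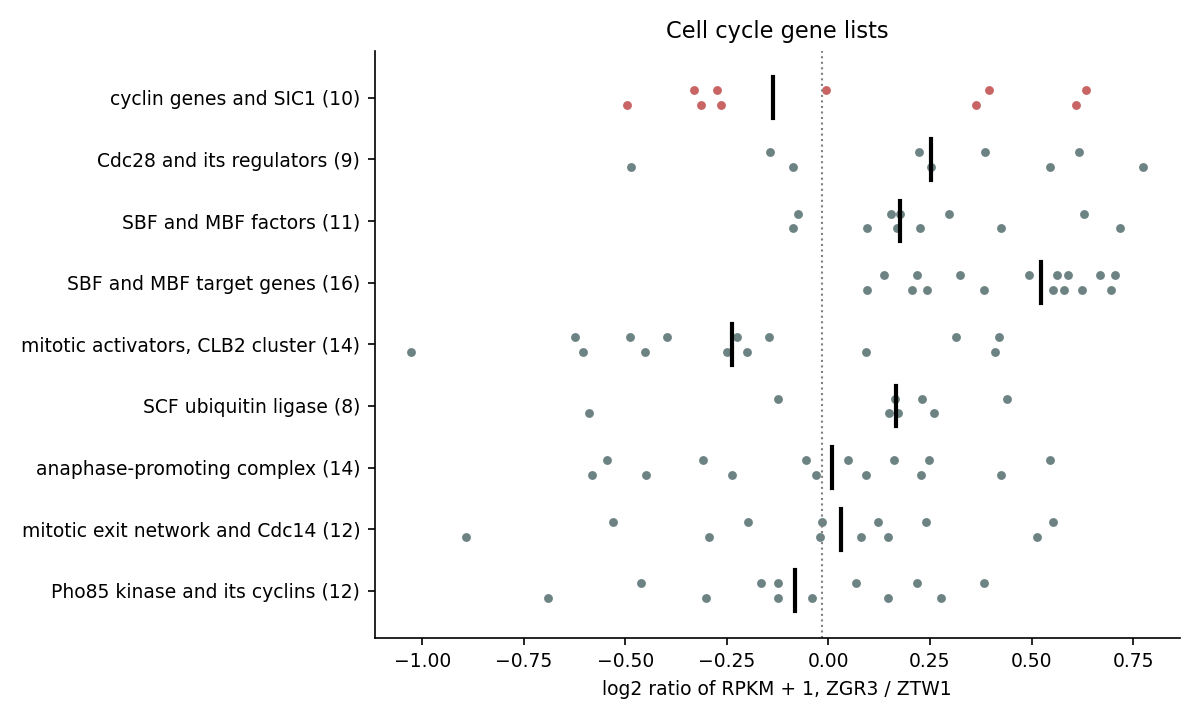
Log2 ratio of RPKM + 1, ZGR3 over ZTW1, for each gene of the cyclin and Sic1 set (top) and of 8 lists of cell cycle genes, with the number of genes in brackets. Black bars mark the median of a list and the dotted line the median of all genes, −0.02. Target genes of SBF and MBF lie to the right of 0 with a median of 0.52, and genes of mitotic activators and the CLB2 cluster mostly to the left with a median of −0.24.

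Of 14 genes for mitotic activators and the CLB2 cluster, the genes transcribed together with CLB2, 10 lay below 0, against 2874 of all 5532 genes, with a median of −0.24, 3 at least 1.5-fold lower and 0 higher. With a pseudocount of 5 RPKM, 1 of 14 was at least 1.5-fold lower. Over the 9 genes of the list with a mean of at least 10 RPKM, 4 lay above 0 and 5 below. Their median was −0.20, and 2 were at least 1.5-fold lower. ALK1, for a haspin-like kinase, had 11.1 RPKM in ZGR3 and 17.7 RPKM in ZTW1 (−0.62), and the polo kinase gene CDC5 had 11.98 RPKM in ZGR3 and 18.7 in ZTW1 (−0.60). KIN3, a kinase gene named after its value was seen, was the 1 gene of the list 2-fold lower (−1.03), with 28 reads in ZGR3 and 64 in ZTW1. The activator genes NDD1 (0.42), MCM1 (0.41), FKH2 (0.31) and FKH1 (0.09), chosen after their values were seen, were the 4 above 0. Counting intervals lay wholly above equality for 3 of the 14, against 17.9% of all genes, and wholly below for 5, against 19.8%. The 3 above were NDD1, MCM1 and FKH2, and the interval of FKH1 includes equality (0.855 to 1.34). SWI5, for a factor that acts on SIC1, had 5.19 RPKM in ZGR3 and 7.15 RPKM in ZTW1 (−0.40), with a counting interval of 0.497 to 1.06 that includes equality, and was also chosen after its value was seen.

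The 3 lists for the destruction of cyclins and Sic1 and for mitotic exit had medians between 0.01 and 0.17. Among 8 genes of the SCF ubiquitin ligase the median was 0.17, with 0 at least 1.5-fold higher and 1 lower, RUB1 (−0.59), which encodes a ubiquitin-like modifier and had 43 reads in ZGR3 and 66 in ZTW1. The number lower was 0 under median centring, trimmed mean of M values scaling, a correction for coding length and a pseudocount of 5 RPKM. HRT1, for the RING subunit, was at 0.44. Of the 8 genes, 6 lay above 0. Counting intervals lay wholly above equality for 5 of the 8, against 17.9% of all genes, and wholly below for 1, against 19.8%. That 1 was RUB1, with an interval of 0.438 to 0.982. Among 14 genes of the anaphase-promoting complex the median was 0.01, and 0 were past 1.5-fold. With a pseudocount of 0.1 RPKM, 1 was higher and 1 lower. Its genes furthest from 0 by the naming rule were SWM1 (−0.58) and APC9 (−0.55). Of the 14, 7 lay above 0 and 7 below. Counting intervals lay wholly above equality for 1, against 17.9% of all genes, and wholly below for 3, against 19.8%. The 1 above was CDC23 (0.55, interval 1.10 to 2.13), named after its value was seen. Its mean of 9.07 RPKM is below the limit of the naming rule. Among 12 genes of the mitotic exit network and Cdc14 the median was 0.03, with 0 higher and 1 lower, and 1 was higher with a pseudocount of 0.1 RPKM. The lower gene was AMN1, for an inhibitor of mitotic exit that acts in daughter cells, with 19.6 RPKM in ZGR3 and 37.2 RPKM in ZTW1 (−0.89). BUB2, for a checkpoint inhibitor of mitotic exit, was at −0.53. Of the 12, 6 lay above 0 and 6 below. Counting intervals lay wholly above equality for 3, against 17.9% of all genes, and wholly below for 2, against 19.8%. The 3 above were those of LTE1 (0.55), DBF20 (0.51) and NET1 (0.24), named after their values were seen.

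The cyclins of a second kinase, Pho85, gave a comparison within the cyclin family. Of 12 genes for Pho85 and its cyclins and regulators, 0 were at least 1.5-fold higher and 1 lower, with a median of −0.08. PCL9 was that gene, at 10.7 RPKM in ZGR3 and 17.8 RPKM in ZTW1 (−0.69), and PCL5 was at −0.46. With a pseudocount of 5 RPKM, 0 of 12 were at least 1.5-fold lower. The G1 genes PCL1 (0.38) and PCL2 (0.22), also in the SBF and MBF target list, lay above 0. The counting interval of PCL1 was 1.06 to 1.62, whereas that of PCL2, 0.824 to 1.68, includes equality.

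By Euclidean distance over log2(RPKM + 1) in the 2 libraries, the genes nearest to CLN2 were SGF29, YKR045C and RPS8B, at distances of 0.01, 0.05 and 0.05. CLB2 lay nearest to BUD5, MSE1 and ALD5, all at 0.01 to 0.02. SIC1 lay nearest to SNF4, KTR3 and SEC21, all at 0.02. With only 2 libraries this likeness covers a level and a ratio.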

How the data were processed

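Per gene and library, the authors deposited a count of unique reads, RPKM, and coverage as a percent of gene length, per the file headers. Deposited counts summed to the header totals, and they gave back the RPKM. All 5659 lengths were multiples of 3 and are called coding length. A gene absent from a library's table was set to 0. The submitters' processing notes name the build sacCer2. Aligner, filters and use of strand were not given in the sources used here, and a gene and its antisense partner cannot be told apart. Names, chromosomes and gene order came from RefSeq R64, in which 5653 gene IDs matched. Coordinates are not given because the builds differ.

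With 1 library per strain no test was run. Folds of reads per total reads carry 95% Clopper-Pearson intervals of the binomial share, and RPKM values carry exact Poisson intervals. Log2 ratios used a pseudocount of 1 RPKM and the 5532 genes whose mean RPKM reached 1. The members and the 8 lists, of which PCL1 and PCL2 stand in 2, were chosen with earlier results of these data known. Named were the 10 members, CDC28, the 2 genes of each list furthest from 0 whose mean RPKM reached 10, and the 3 genes nearest to CLN2, CLB2 and SIC1. Other names were added after their values were seen. Alternatives were pseudocounts of 0.1 and 5, trimmed mean of M values scaling, median centring, no filter or a mean RPKM of 10, a 2-fold rule, a running median of 401 genes over coding length, and subtraction of chromosome medians. The list medians were added to these after the data were seen. A result on some further genes is not reported here. Calculations were tested on simulated data. The tools were numpy 2.4.6, scipy 1.17.1, pandas 2.3.3 and matplotlib 3.10.9 in Python 3.11.15.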

Additional observations from a re-analysis of the deposited data

How the results depend on the processing

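The signs of the log2 ratios of CLN1, CLN2, CLN3, CLB1, CLB2, CLB3, CLB4, CLB6 and SIC1 held under each alternative that could be computed for them, whereas CLB5 ranged from −0.01 to 0.01 and was above 0 after median centring and trimmed mean of M values scaling. Of 77 single values, 76 moved by less than their counting error. The exception was CLN3, at 0.30 after subtraction of the chromosome median. The median of the 10 genes, −0.14, was 0.36 over the 7 genes with a mean of at least 10 RPKM, a filter that leaves out CLB2, CLB4 and CLB6. CLB3 and CLN2 were past 1.5-fold under every alternative except 2. The number of members at least 1.5-fold higher was 0 with a pseudocount of 5 RPKM, where they were at 0.55 and 0.54, and 0 with the 2-fold rule. Over all genes, 112 were past 1.5-fold as higher and 249 as lower with that pseudocount, against 201 and 409 with 1 RPKM. The 5 members whose counting interval excluded equality were the same 5 under median centring, trimmed mean of M values scaling and both other filters. Of 64 list medians, 63 moved by less than 0.1. The exception was that of the SBF and MBF targets, 0.40 with a pseudocount of 5 RPKM. Of the medians near 0, that of the anaphase-promoting complex was −0.03 over genes with a mean of at least 10 RPKM and that of the mitotic exit network −0.0040 after subtraction of chromosome medians. Shares within a library do not depend on these settings. Depth limits CLB6, CLB4, CLB2, CLB1 and CLB5 most, with at most 73 reads in either library.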

Other observations

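CLB5 had almost equal reads in the libraries but unequal coverage, 91.4% of its length in ZGR3 with 62 reads and 68.8% in ZTW1 with 63 reads. Genes within 1.2-fold of its length and read density had a median coverage of 82.7% in ZGR3 (81 genes, 5th to 95th percentile 70.4 to 91.3) and 83.9% in ZTW1 (91 genes, 71.0 to 91.8). CLB5 thus lay at the upper edge of similar genes in ZGR3 and below the lower edge in ZTW1. The coverage of CLB2, its neighbour on chromosome XVI, was 76.2% in ZGR3 and 72.3% in ZTW1, within the range of similar genes in both. CLB6 in ZTW1 also lay outside its range, at 31.15% against a 95th percentile of 27.2, but with only 2 similar genes. Coverage was compared for the 10 genes after the values were seen, and the cause was not tested.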
